A study of Mus musculus with 3 samples.

Results

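Claudins, tight junction proteins and connexins were described in RNA from mouse medial prefrontal cortex, the inner face of the frontal lobe. The members were all genes whose symbol is a claudin (Cldn), a connexin (Gja to Gje), a zonula occludens scaffold (Tjp), a junctional adhesion molecule (F11r, Jam2 and Jam3), occludin (Ocln), or Marveld2 or Marveld3. This gave 53 genes of 46073 in the expression table, with 24 claudins, 20 connexins, 3 scaffolds, 3 junctional adhesion molecules and 3 proteins of the MARVEL type. The tissue came from untreated (naïve) C57BL/6 mice aged 3 months, with no transgene, deletion or agent named in the labels and no second condition. The series also holds methylated and input DNA from this tissue, which were not analysed here. RNA-seq was stated to have 3 replicates, but the expression table gives 1 value per gene, so no value has an error, no difference has a replicate check, and no test was made. Levels are in FPKM, the fragments of a gene scaled to transcript length in kilobases and to 1000000 mapped fragments, so that genes of unlike length can be set side by side within the sample.

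Tight junctions close the space between neighbouring cells. Claudins form the strands, occludin and the other MARVEL proteins join them, junctional adhesion molecules lie beside them, and the scaffolds tie the strands to actin. In brain, claudin strands seal capillaries at the blood-brain barrier and seal the layers of myelin. Connexins form gap junction channels, which couple astrocytes and oligodendrocytes into networks and link some neurons as electrical synapses. Each member was assigned by its best known cell type to a vascular, glial, neuronal or epithelial group, or to connexins of other tissues such as lens, heart, muscle and testis.

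Of the 53 members, 20 (37.7%) were at 1 FPKM or more, the level taken here as detected, against 31.5% of all rows and 58.6% of protein-coding rows. The 8 glial members were detected in full, the vascular members in 9 of 10 cases, the neuronal members in 2 of 3 and the epithelial members in 1 of 26. None of the 6 connexins of other tissues was detected. The median over all members of a group was 11.9 FPKM for glial, 6.49 FPKM for vascular, 1.21 FPKM for neuronal and 0.0616 FPKM for epithelial genes, beside 2.58 FPKM over protein-coding rows and 0.0414 FPKM over all rows. The neuronal median, over only 3 genes, is the value of Gjc1, which is also a connexin of vascular smooth muscle. By family, 5 of 24 claudins and 9 of 20 connexins were detected. All 3 junctional adhesion molecules, 2 of 3 scaffolds and 1 of 3 MARVEL proteins were detected too.

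**Figure D1:**
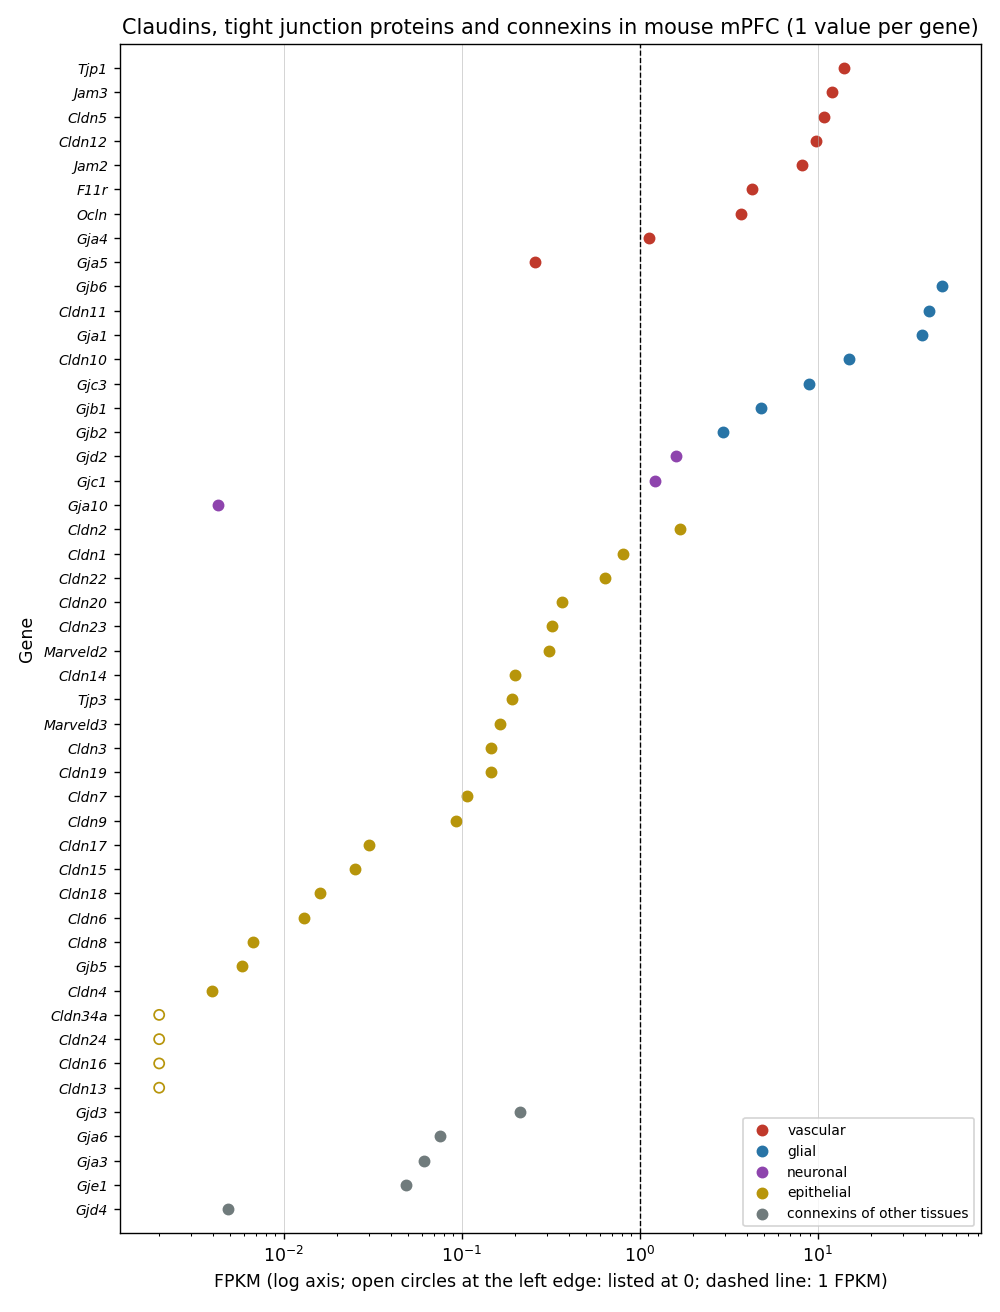
Level of 48 of the 53 genes in FPKM on a log axis, 1 value per gene, coloured by group, with the dashed line at 1 FPKM. The 7 glial genes plotted all lie right of the line, from 2.93 to 50.02 FPKM, and 23 of the 24 epithelial genes plotted lie left of it, 4 of them listed at 0.

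Gjb6, Cldn11 and Gja1 were the highest members, and the 3 together held 53.7% of the summed FPKM of all 53. The promoter windows of these 3 genes are shown because the genes carry most of the summed level, and that of Cldn5 because it is the claudin of the blood-brain barrier. Those of Gjb2 and Gja3, which neighbour Gjb6 on chromosome 14, are shown because their genes stand far below it. Each window runs 5′ to 3′ from 250 bases before to 50 bases after the start in RefSeq (GRCm38.p6), with the CpG dinucleotides, the main targets of DNA methylation, in capitals. Gja3 has another listed start, which is not shown.
Gjb6, chr14:57133562-57133861, minus strand: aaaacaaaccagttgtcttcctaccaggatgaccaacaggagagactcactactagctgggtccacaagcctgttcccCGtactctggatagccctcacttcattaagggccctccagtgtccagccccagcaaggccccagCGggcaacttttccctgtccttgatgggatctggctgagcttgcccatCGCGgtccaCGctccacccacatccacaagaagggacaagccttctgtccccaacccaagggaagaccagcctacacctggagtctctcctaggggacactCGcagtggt
Gja1, chr10:56377050-56377349, plus strand: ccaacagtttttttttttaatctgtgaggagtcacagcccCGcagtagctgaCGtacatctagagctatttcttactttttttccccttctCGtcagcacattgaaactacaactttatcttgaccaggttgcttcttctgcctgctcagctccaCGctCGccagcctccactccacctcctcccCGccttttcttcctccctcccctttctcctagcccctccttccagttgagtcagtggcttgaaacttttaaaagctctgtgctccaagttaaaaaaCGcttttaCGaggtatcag
Cldn11, chr3:31149670-31149969, plus strand: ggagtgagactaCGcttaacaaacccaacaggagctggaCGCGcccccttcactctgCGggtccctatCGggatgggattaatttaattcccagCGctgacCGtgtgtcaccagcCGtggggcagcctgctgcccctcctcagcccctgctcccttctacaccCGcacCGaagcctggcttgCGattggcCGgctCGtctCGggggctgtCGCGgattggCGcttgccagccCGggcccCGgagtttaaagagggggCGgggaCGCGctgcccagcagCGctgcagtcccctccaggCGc
Cldn5, chr16:18776597-18776896, plus strand: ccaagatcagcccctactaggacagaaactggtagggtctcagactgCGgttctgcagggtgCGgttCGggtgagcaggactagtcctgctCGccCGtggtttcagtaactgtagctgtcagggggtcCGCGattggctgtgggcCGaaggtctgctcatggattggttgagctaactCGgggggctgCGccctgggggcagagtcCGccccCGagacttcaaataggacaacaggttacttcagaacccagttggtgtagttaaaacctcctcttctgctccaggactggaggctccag
Gjb2, chr14:57104653-57104952, minus strand: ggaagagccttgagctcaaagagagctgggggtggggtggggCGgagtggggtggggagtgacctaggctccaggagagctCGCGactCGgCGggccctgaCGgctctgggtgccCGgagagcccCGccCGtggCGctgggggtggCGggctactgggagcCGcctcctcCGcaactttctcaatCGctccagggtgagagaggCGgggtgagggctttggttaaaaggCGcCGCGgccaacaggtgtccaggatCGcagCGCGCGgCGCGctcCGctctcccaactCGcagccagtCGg
Gja3, chr14:57057981-57058280, minus strand: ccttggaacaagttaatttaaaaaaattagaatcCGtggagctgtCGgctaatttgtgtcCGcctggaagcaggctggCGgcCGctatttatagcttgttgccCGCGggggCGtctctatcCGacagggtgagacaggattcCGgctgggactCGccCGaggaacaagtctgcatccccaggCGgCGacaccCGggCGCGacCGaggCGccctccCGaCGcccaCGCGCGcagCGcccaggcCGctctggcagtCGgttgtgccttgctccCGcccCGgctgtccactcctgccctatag

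The glial group led, with the astrocyte connexins Gjb6 and Gja1 above the other connexins. Gjb6 (ENSMUSG00000040055, Cx30), a connexin of astrocytes, was at 50.02 FPKM, above 93.7% of protein-coding rows. Gja1 (ENSMUSG00000050953, Cx43), the main astrocyte connexin and also a connexin of ependyma, vessels and meninges, was at 38.5 FPKM, above 91.1% of protein-coding rows. The level of Gjb6 was 1.30 times that of Gja1, and without replicates it cannot be said which of the pair is higher. Gjb2 (Cx26), found in astrocytes and in the meninges, was far lower at 2.93 FPKM, 17.1-fold below Gjb6.

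The oligodendrocyte connexins Gjc3 and Gjb1 stood below Gjb6 and Gja1 and above Gjb2. Gjc3 (Cx29), found on the innermost myelin layers, was at 8.91 FPKM. Gjb1 (Cx32), a connexin of myelin and cell bodies, was at 4.82 FPKM, and the level of Gjc3 was 1.85 times that of Gjb1. The summed level of Gja1 and Gjb6 was 88.5 FPKM against 13.7 FPKM for Gjb1 and Gjc3, a ratio of 6.45, in which Gjb2 was not counted. The 6 glial connexins held 95.9% of the summed FPKM of all 20 connexins.

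Of the glial claudins, Cldn11 (ENSMUSG00000037625; chromosome 3, 31149920 to 31164326), which forms the strands within central myelin, was at 42.3 FPKM, the highest of the 24 claudins. It was 3.91-fold above Cldn5. Cldn10 (chromosome 14, 118787871 to 118874525), an ion-pore claudin of kidney and glands that is also found in astrocytes, was at 15.0 FPKM, 2.82-fold below Cldn11. Cldn10 has separate starts with their own first exons, and the gene-level value does not separate the isoforms.

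Set beside marker genes of the same cells, the glial members ranged from near the marker median to far below it. In bulk tissue, fewer cells of a type and less RNA per cell cannot be told apart. The 10 astrocyte markers were all detected, from Sox9 at 4.66 to Aldoc at 613 FPKM, and their median was 45.2 FPKM. Gjb6 was at 1.11 and Gja1 at 0.853 times this median. Cldn10 was at 0.331 times and Gjb2 at 0.0648 times this astrocyte median. The 10 oligodendrocyte markers were all detected as well, from Myrf at 8.11 to Mbp at 912 FPKM, and their median was 49.5 FPKM. Cldn11 was at 0.854 times the oligodendrocyte median, while Gjc3 and Gjb1 were at 0.180 and 0.0973 times it. Gjb1 was below the lowest of the 10 oligodendrocyte markers. Meningeal cells also express Cldn11, Gjb2 and Gjb6, and the leptomeningeal markers were present at a median of 2.72 FPKM (9 of 9 detected, from Col1a1 at 1.18 to Igf2 at 28.1 FPKM). The level of Gjb2 was 1.07 times this leptomeningeal median, while Cldn11 and Gjb6 were 15.5 and 18.4 times it. The part of meningeal RNA in these levels was not tested.

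**Figure D2:**
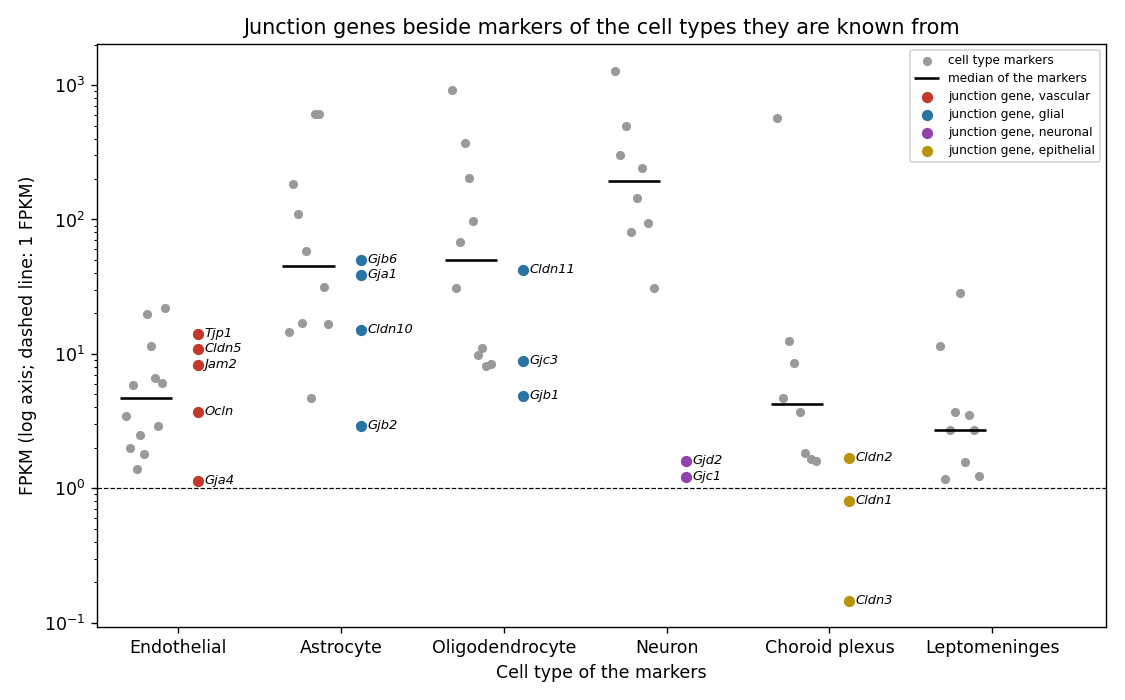
FPKM on a log axis of junction genes (coloured, named) beside markers of the cell types they are known from (grey points, black line at their median), 1 value per gene. Gjb6, Gja1 and Cldn11 lie near the median of their markers, and Gjd2 and Gjc1 lie more than 100-fold below that of the neuronal markers.

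The vascular group was led by the scaffold Tjp1 and by Jam3, followed by Cldn5. Cldn5 (ENSMUSG00000041378; chromosome 16, 18776847 to 18778262), the claudin that seals brain capillaries, was at 10.8 FPKM. The 12 endothelial markers were all detected, from Kdr at 1.40 to Slc2a1 at 21.8 FPKM, with 4.66 FPKM as their median. The level of Cldn5 was 2.32 times this endothelial median and above 9 of the 12 markers. Cldn12 (chromosome 5, 5505015 to 5514976), a claudin of vessels and of many other cells, was at 9.78 FPKM, within 1.11-fold of Cldn5. Cldn1 and Cldn3, which have also been discussed as claudins of the barrier, were not detected. Cldn1 stood at 0.804 FPKM, the highest of the undetected members and near the floor, 13.5-fold below Cldn5. Cldn3 stood at 0.146 FPKM, 74.2-fold below Cldn5.

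The scaffold and adhesion genes are less specific to vessels. Tjp1 (chromosome 7, 65296165 to 65527850), the ZO1 scaffold, was at 14.1 FPKM. Tjp3, the scaffold of epithelia, was at 0.191 FPKM, 73.9-fold below Tjp1. Ocln (chromosome 13, 100496504 to 100552718), a strand protein of tight junctions, was at 3.69 FPKM, 2.93-fold below Cldn5 and 3.83-fold below Tjp1. Jam3, an adhesion molecule of vessels and other cells, was at 12.1 FPKM, and Jam2, which binds Jam3, at 8.19 FPKM. F11r, the adhesion molecule shared by endothelium, epithelium and blood cells, was at 4.29 FPKM, 2.82-fold below Jam3. Tjp1, Ocln, F11r, Jam3 and Cldn12 are among 6 vascular members listed here as broad, because other brain cells express them too. Leaving out these 6 kept Cldn5, Jam2, Gja4 and Gja5 in the vascular group. Their median was 4.66 FPKM, and 3 of the 4 reached the floor of 1 FPKM. Whether cells outside vessels, too, give rise to the levels of Jam2 and the others kept was not tested.

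Both arterial connexins were low. Gja4 (chromosome 4, 127311420 to 127314039, Cx37), a connexin of arterial endothelium and mural cells, was at 1.12 FPKM, the lowest of the detected members. Gja5 (Cx40), a connexin of arterial endothelium, was at 0.259 FPKM, 4.34-fold lower. The 5 arterial markers had a median of 3.62 FPKM with 3 of 5 detected, from Bmx at 0.265 to Hey1 at 17.6 FPKM. The mural markers had a median of 3.43 FPKM with 6 of 8 detected, from Abcc9 at 0.734 to Vtn at 27.8 FPKM. Against the arterial median, Gja4 was at 0.310 times and Gja5 at 0.0715 times. Gja4 was above 2 of the 5 arterial markers, Bmx and Sema3g (0.835 FPKM), and Gja5 was below all 5. The arterial markers Hey1 and Efnb2 were themselves above the endothelial marker median of 4.66 FPKM. The part of RNA from other cells in the arterial marker levels was not tested.

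Neuronal connexins stood far below the neuronal markers in this cortex. Gjd2 (chromosome 2, 114009601 to 114014378, Cx36), the connexin of electrical synapses between interneurons, was at 1.61 FPKM. The 8 neuronal markers were all detected, from Elavl4 at 30.6 to Snap25 at 1279 FPKM, and their median of 192 FPKM was 120-fold above Gjd2. Gjd2 was 19.1-fold below the median of the inhibitory neuron markers, which was 30.7 FPKM with all 6 detected. The long non-coding gene A530058N18Rik, at 2.69 FPKM, overlaps 814 bases (17.0%) of Gjd2, and the handling of strand is not given in the sources used here, so reads of the pair cannot be told apart in the overlap. Gjc1 (Cx45), a connexin of neurons and of vascular smooth muscle, was at 1.21 FPKM, which was 159-fold below the neuronal marker median and 2.83-fold below the mural marker median. The level of Gjd2 was 1.33 times that of Gjc1. Gja10, a connexin of retinal horizontal cells, was at 0.00428 FPKM. Gja1 was 24.0-fold above Gjd2.

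All but 1 of the epithelial members were under 1 FPKM. Cldn2 (chromosome X, 139800808 to 139811386), the pore-forming claudin of kidney, gut and choroid plexus, was the exception, at 1.68 FPKM. The choroid plexus markers were all detected, 8 of 8, with a median of 4.20 FPKM, from Slc4a5 at 1.60 to Folr1 at 12.5 and Ttr at 566 FPKM. Cldn2 stood at 0.400 times this choroid plexus median and above 2 of its 8 markers. Cldn1 and Cldn3, which are also claudins of choroid plexus, were at 0.191 and 0.0347 times that median. The part of choroid plexus RNA in the level of Cldn2 was not tested. General epithelial markers were detected in 1 of 8 cases, Krt18 at 1.06 FPKM, with a median of 0.0983 FPKM, the adhesion gene Epcam at 0.0940 FPKM and Krt14 listed at 0.

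Of the 33 members under 1 FPKM, 19 were claudins and 11 connexins. The 5 highest were Cldn1 at 0.804, Cldn22 at 0.641, Cldn20 at 0.365, Cldn23 at 0.321 and Marveld2 at 0.309 FPKM. Marveld2, tricellulin, which seals the points where several cells meet, was 1.89-fold above Marveld3 at 0.164 FPKM. Altogether 13 of the 33 were between 0.1 and 1 FPKM and 15 were above 0 but under 0.1 FPKM. The last 5, among them Cldn13, Cldn16, Cldn24 and Cldn34a, were listed at 0, which can be a failed estimate as well as an absent transcript. Cldn20 lies wholly within the span of Tfb1m, at 2.92 FPKM, and reads of Cldn20, at 0.365 FPKM, cannot be told apart with certainty from those of Tfb1m. Among connexins of other tissues, the testis connexin Gja6 was at 0.0753 FPKM, the lens connexin Gja3 was at 0.0614 FPKM, and Gjd3, which is known from cardiac conduction tissue, was at 0.213 FPKM. Gje1 and the muscle connexin gene Gjd4 were at 0.0485 and 0.00490 FPKM. Of the epithelial claudins not yet named, Cldn14, Cldn19 and Cldn7 lay between 0.107 and 0.199 FPKM, and Cldn17, Cldn15, Cldn18 and Cldn8 between 0.00674 and 0.0300 FPKM.

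Members that lie close together in the genome were mostly undetected, and the clusters with a detected member held undetected ones too. Within 200000 bases of each other lay 22 members in 9 clusters, 4 of the 22 detected, against 16 of the 31 members that stand alone, beside 31.5% of all rows and 58.6% of protein-coding rows. Of the 22 clustered members 15 were epithelial, against 11 of the 31 single ones. No cluster was detected in full, 3 were mixed and 6 had no detected member. On chromosome 14 the connexin genes Gja3, Gjb2 and Gjb6 lie within 99152 bases at 0.0614, 2.93 and 50.02 FPKM, so that Gjb6 was 815-fold above Gja3. On chromosome 4 Gja4, at 1.12 FPKM, lies within 46745 bases of Gjb5, a skin connexin gene at 0.00583 FPKM. On chromosome 13 Ocln was 11.9-fold above Marveld2. The claudin clusters on chromosomes 5, 8, 16 and 17 had no detected member.

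**Figure D3:**
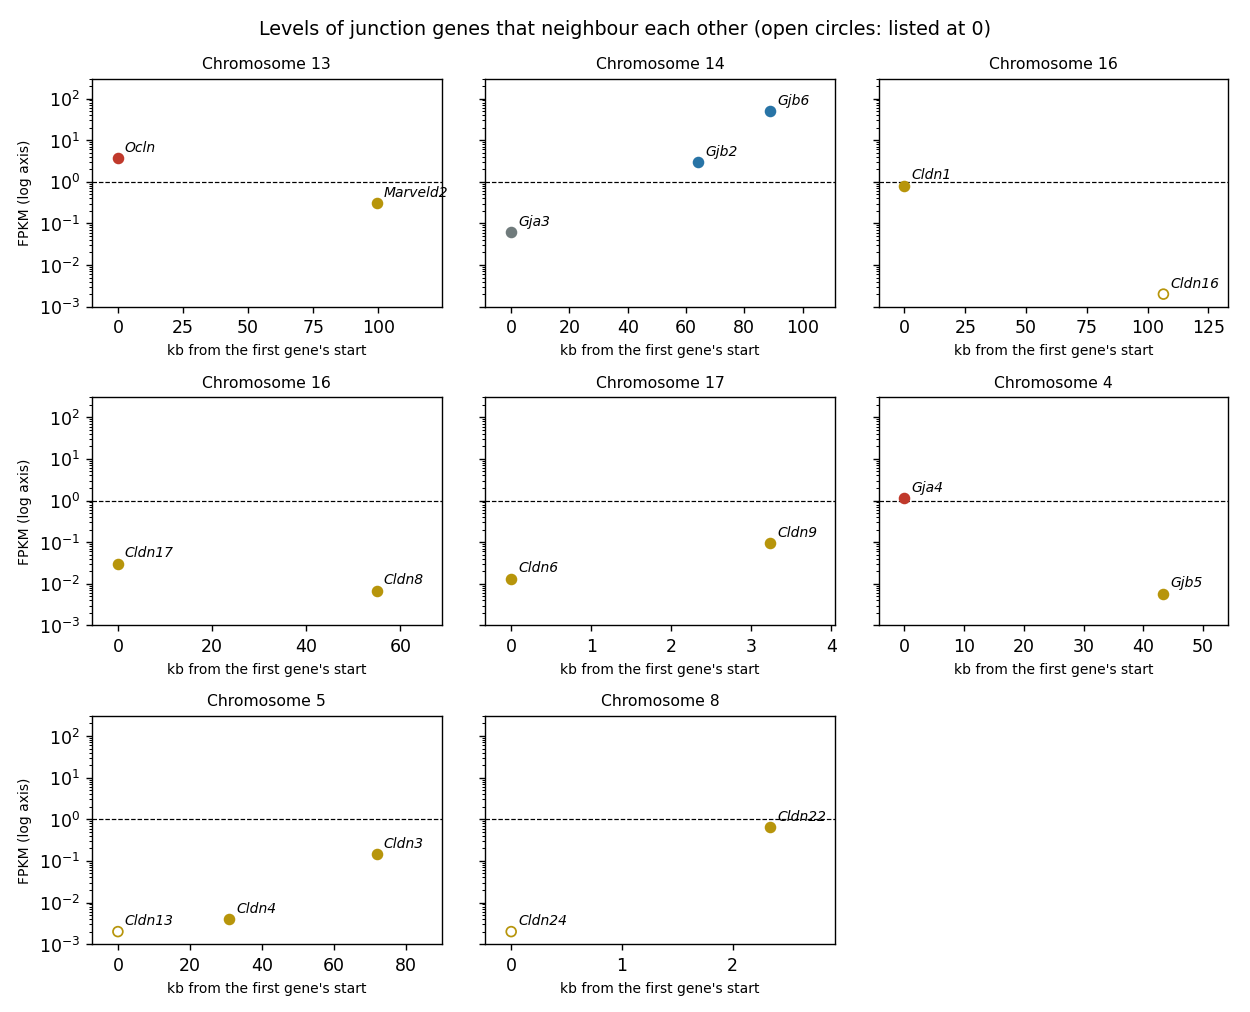
FPKM on a log axis of 18 junction genes in 8 of the 9 genomic clusters, against the distance in kb from the start of the first gene of each cluster, 1 value per gene, with the dashed line at 1 FPKM and points in red for vascular, blue for glial, ochre for epithelial and grey for other connexins. The chromosome 14 panel spans 0.0614 to 50.02 FPKM, and in 5 of the 8 panels every gene plotted lies below the line.

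The promoter windows shown above differ widely in CpG content. CpG content is given as the ratio of observed to expected CpG, which is low where CpG has been depleted in evolution and is often 0.6 or more in CpG islands. Gjb6, the highest member, had 6 CpG in 300 bases and a ratio of 0.255, while the nearby Gjb2 had 27 CpG and a ratio of 0.760. The window of Gja3 shown had 29 CpG and a ratio of 0.966, although Gja3 was at 0.0614 FPKM. Cldn11 had 24 CpG and a ratio of 0.730, Cldn5 12 CpG and a ratio of 0.476, and Gja1 8 CpG and a ratio of 0.544. Windows of Gjc3, Gjb1 and Gjd2 are not shown. Of the oligodendrocyte connexins, Gjc3 and Gjb1 were low at 0.261 and 0.292, for Gjb1 as the mean over 4 listed starts. The neuronal Gjd2 was high at 0.975 with 41 CpG.

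Promoter windows were at hand for 37 of the 53 members, 15 of them detected, with the mean taken over a gene's listed starts. The median ratio was 0.574 for the 15 detected members and 0.355 for the 22 undetected ones, and the ranges overlapped (0.255 to 0.975 and 0.136 to 0.947). Over protein-coding genes the medians were 0.754 for 9721 detected and 0.219 for 6842 undetected genes. A ratio of 0.6 or more was found in 7 of 15 detected members (46.7%), against 71.9% of detected protein-coding genes, and in 3 of 22 undetected members (13.6%), against 15.0% of undetected protein-coding genes. Across members, which share 1 library, the rank correlation of the ratio with FPKM was 0.45 (n = 37), and within the 15 detected members it was -0.19. Across 16563 protein-coding genes it was 0.65. Genes are not independent replicates, and these correlations are descriptions. Methylation at these windows was not analysed here.

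**Figure D4:**
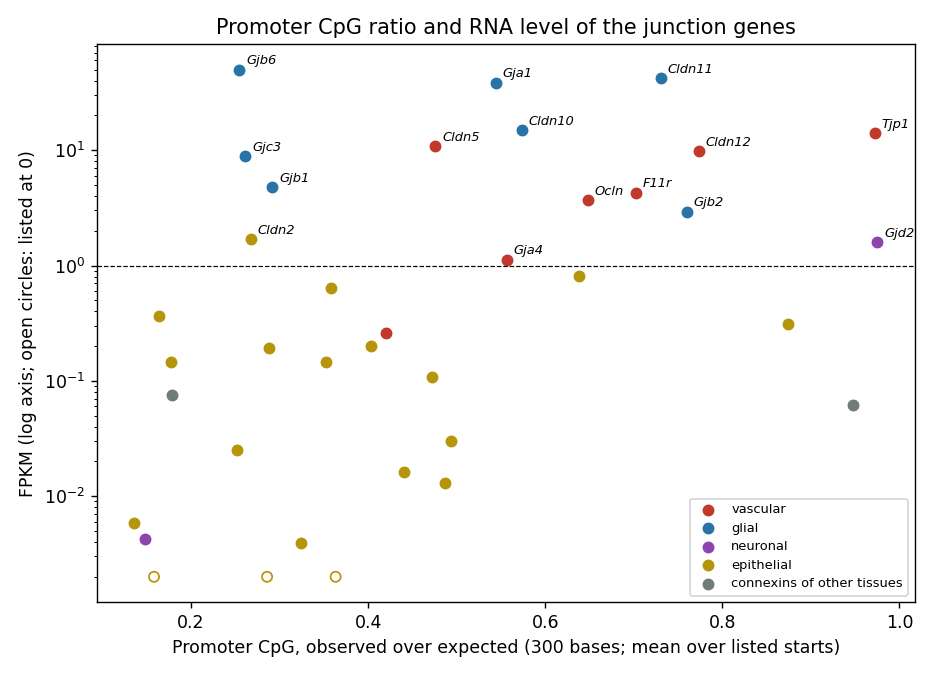
FPKM on a log axis against the observed over expected CpG ratio of the 300-base promoter window (mean over listed starts) for the 37 members with a window, 1 value per gene, with detected genes named. Gjb6 is at the top at a ratio of 0.255, and the detected genes spread from there to Gjd2 at 0.975.

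Short promoter motifs were searched as exact letters on both strands, so that reverse means the reverse complement, and GGGCGG holds a CpG of its own. CCAAT or its reverse was in 23 of 52 member windows (44.2%), against 37.4% of all 32851 windows of this length, and GGGCGG or its reverse in 25 of 52 (48.1%) against 35.7%. TATAAA or its reverse was in 7 of 52 windows (13.5%) against 13.6%. ACAAAG, a core bound by Sox factors, was with its reverse in 8 of 52 windows (15.4%) against 18.7%. The windows of Cldn11 and Cldn5 each held the reverse of CCAAT at 2 places and GGGCGG or its reverse at 1, while those of Gjb6 and Gja1 held none of the 4 motifs. A match describes letters in the window and is not a binding site.

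Genes listed as junction partners were mostly detected, in 17 of 20, 12 of 13 and 5 of 6 cases. At 1 FPKM or more, the shares were 58.6% of protein-coding rows and 31.5% of all rows. The lists were chosen with earlier results of these data known, and roles of their genes outside junctions were not separated. Of 20 partners of tight junctions, 17 were detected, with a median of 5.99 FPKM. Sympk at 35.1, the adherens and tight junction adaptor Afdn at 27.2 and the scaffold Magi2 at 24.2 FPKM were highest. Igsf5 at 0.257 and the tricellular protein gene Ildr1 at 0.0959 FPKM were lowest. Lsr, the tricellular junction protein of brain endothelium, was at 1.89 FPKM, beside Marveld2 at 0.309 FPKM. Adherens junction genes were detected in 12 of 13 cases (median 12.9 FPKM), led by Ctnnb1 at 139, Ctnna2 at 26.3 and Ctnnd2 at 23.8 FPKM, with Nectin2 at 1.93 and the epithelial cadherin gene Cdh1 at 0.455 FPKM lowest. Of 6 genes listed with gap junctions, the pannexin genes included, 5 were detected. Dbn1, which binds Gja1 protein, was at 69.5 FPKM, the pannexin genes Panx2 and Panx1 were at 46.9 and 12.5 FPKM, Cnst and Cav1 were at 7.31 and 6.63 FPKM and Panx3 was listed at 0. Panx2, a large-pore channel gene, was at 0.937 times the level of Gjb6, and Panx1 was 7.78-fold above Gjd2.

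Across 28 pairs of paralogs, junction partners or genomic neighbours, 16 were apart by 2-fold or more once 1 was added to each FPKM. The pairs were chosen by hand and no share over other gene pairs was computed, so the count describes these pairs only. Both genes were detected in 16 of the 28 pairs, and 10 of those 16 were apart. Pairs closer than that included Gja1 with Gjb6, Jam2 with Jam3, Cldn5 with Cldn12 and Gjd2 with Gjc1. Adding 1 shrinks ratios among low genes: Cldn3 was listed 36.9-fold above Cldn4, and Cldn9 7.12-fold above Cldn6, with all 4 under 0.2 FPKM. Cldn4 was at 0.00395 and Cldn6 at 0.0131 FPKM. With 1 value per gene so near 0 and unknown depth, these ratios cannot be read as differences in expression.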

How the data were processed

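Per the labels' protocols, total RNA was isolated with Tri-reagent and, after DNase treatment, sequenced from TruSeq v2 libraries. Reads were processed with CASAVA 1.8.2, TopHat and Cufflinks on mm10, per the submitters' processing notes. Other versions, the annotation, strand handling and the way replicates were joined were not given in the sources used here. FPKM values were deposited by the authors. The 2 value columns hold the same value in 46073 of 46073 rows and were counted as 1 sample, so sequencing depth and replicate spread are unknown.

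Identifiers were matched to symbols (45139 rows), and gene classes, coordinates and promoter sequences came from RefSeq for GRCm38.p6, the assembly of mm10. Each member had 1 identifier. Genes at 1 FPKM or more were called detected. The members and lists were chosen with earlier results of these data known. The rule for named genes takes all detected members, the 5 highest undetected ones, both genes of every pair, members in genomic clusters, and of each partner list the 3 highest and 2 lowest. Some of the genes it takes are not reported here, while counts, medians and sums over a group include all members. In the tight junction list Pals1 was matched as Mpp5. For marker lists, where that rule also took the 3 highest and 2 lowest, mostly the ends of the range are named. Epcam, Folr1, Sema3g and Efnb2 are named besides, and no gene of the inhibitory neuron list is named. Lsr, Cnst and further members in the text were added after their values were seen. Protein identity was planned and was not computed here. Alternatives for the floor, pseudocount, scaling and summary were computed, and the calculations were tested on simulated data. Scripts ran in Python 3.11.15 with pandas 2.3.3 and numpy 2.4.6, and figures came from matplotlib 3.10.9.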

Additional observations from a re-analysis of the deposited data

How the results depend on the processing

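The number of members detected moved with the floor, from 20 at 1 FPKM to 33 at 0.1 FPKM and 10 at 5 FPKM. It was 22 at 0.5 FPKM, and 21 and 22 after rescaling to 1000000 with and without mitochondrial rows. Epithelial members above the floor numbered 1 at 1 FPKM, 3 at 0.5 FPKM and 12 at 0.1 FPKM, and 2 and 3 after the same rescalings. Cldn1 was under the floor at 1 FPKM and above it in each of those other settings. At 5 FPKM the vascular count fell from 9 to 5, the glial from 8 to 5, and the neuronal from 2 to 0. The background share was 31.5% over all rows and 58.6% over protein-coding rows, so the members' 37.7% lay between the 2 backgrounds. As a geometric mean on the log2(FPKM + 1) scale, the neuronal level was 0.796 FPKM and the epithelial level 0.167 FPKM, and over detected members alone the epithelial level was 1.68 FPKM, from 1 gene. The order glial, vascular, neuronal, epithelial held for medians and geometric means over all members, with only 3 genes in the neuronal group. Over detected members alone, the neuronal median of 1.41 FPKM was below the epithelial value. The pairs that were apart numbered 16, and 18 and 20 with pseudocounts of 0.1 and 0.01. The difference in promoter CpG ratio between detected and undetected members, 0.218, was 0.335 with the start of highest ratio in each gene, an alternative chosen after seeing the data, and 0.171 to 0.235 at the other floors. Among the 35 members that overlap no other RefSeq gene, a subset also taken after seeing the data, 14 were detected. No paired analysis was possible because the table gives 1 value per gene, and leaving out each replicate was not run for the same reason. Depth is unknown, so no counting interval or detection limit is given.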
